A study of Mus musculus with 24 samples.

Results

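The genes described here are 10 regulators of programmed cell death: the pro-survival Bcl2 family genes Bcl2, Bcl2l1 and Mcl1, the BH3-only genes Bcl2l11 and Bid, the effectors Bak1 and Bax, the death receptor gene Fas, and the death inhibitors Cflar and Birc3. Each gene was followed through the probe set with the highest mean over all arrays among those whose annotation names that gene alone. Of the 10 genes, 9 had such a probe set and all 9 passed the filter on low values, out of 11785 genes tested. No probe set of the platform table used here names Bax, and Bax was not analysed here. Expression was measured on 24 arrays in bone marrow-derived macrophages (BMDM, macrophages grown from marrow precursors) of the mouse strain C57Bl/6, all without a labelled genetic change. After an overnight culture and washing, the medium was changed to one with no serum or with serum at 5%, from fetal calves, mice or humans, and 25 ng/ml LPS (lipopolysaccharide, a bacterial cell wall component) was added or left out. They were harvested 4 h later. All 3 sera had been heated beforehand (56 °C, 30 min), a step meant to remove complement activity. This gave 8 groups (4 media, with and without LPS) of 3 arrays each, 1 from each of the replicate experiments G, H and I. The labels do not say that the experiments used separate animals, so p-values measure the spread between experiments.

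Bcl2 family proteins control the permeability of the outer mitochondrial membrane. Bcl2, Bcl-xL (from Bcl2l1) and Mcl1 keep the pore-forming effectors Bax and Bak inactive, and BH3-only proteins such as Bim (from Bcl2l11) and Bid oppose them or engage the effectors. Fas is a cell-surface receptor that recruits caspase-8, c-FLIP (from Cflar) blocks caspase-8 at that complex, and cIAP2 (from Birc3) is a ubiquitin ligase of TNF receptor signalling. In macrophages LPS signals through TLR4 to NF-kB, which is known to induce several death inhibitors.

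Promoter windows are shown because the members moved in opposite directions with LPS, and because they differ in whether they hold motifs of 3 factor families known from inflammatory and survival signalling. RefSeq windows (GRCm38.p6) run from 250 bases before to 50 bases after an annotated start, and all 10 genes matched at least 1. Searched on both strands were the kappaB consensus (named only), the AP-1 motif TGANTCA and the FOXO motif GTAAACA. Over 32851 such windows of 300 bases, 4.51% held the kappaB consensus, 7.81% the AP-1 motif and 3.65% the FOXO motif. These 3 windows were the only ones of the 10 genes with a match, and the stretch around it is printed on the gene's strand with the match in capitals.
Fas, chr19:34290423-34290479, AP-1 match 211 bases before the start: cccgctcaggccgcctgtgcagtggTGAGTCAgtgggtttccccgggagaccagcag
Bcl2l11, first of 2 windows, chr2:128125788-128125842, FOXO match 227 bases before the start: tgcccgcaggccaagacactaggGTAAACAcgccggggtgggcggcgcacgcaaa
Bcl2l1, second of 3 windows, minus strand, chr2:152830925-152830967, kappaB match 242 bases before the start: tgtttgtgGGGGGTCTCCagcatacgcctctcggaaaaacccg
The windows of Birc3, Cflar, Bcl2, Mcl1, Bid, Bak1 and Bax held none of the 3 motifs. A match is a description of these letters and no evidence that a factor binds there.

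All values are on the log2 scale, and a difference of 1 is a doubling. Array medians lay between 5.04 and 5.13, and replicate arrays of a group correlated at 0.983 to 0.992 over all probe sets. LPS arrays answered to their labels: Il6 was higher with LPS by 9.003 to 9.595 and Tnf by 2.96 to 4.96 in the 4 media. All 8 macrophage markers lay above the median of all values (5.08) on all 24 arrays. Of the 5 T cell markers on the array, 4 lay above it on none, as did 3 of 4 mast cell or basophil markers, 2 of 4 dendritic cell markers, 2 of 4 B cell markers, 1 of 2 NK cell markers and 3 of 5 fibroblast markers. S100a8, S100a9 and Camp of the 6 neutrophil markers, Pf4 of the 5 erythroid or megakaryocyte markers, Pdgfrb and the endothelial marker Kdr lay above it on all 24 arrays. The NK cell marker Klrk1 had group means from 2.77 to 8.13 (above the median on 12 arrays), and the B cell marker Cd79b from 5.23 to 7.26 (22 arrays). The dendritic cell markers Zbtb46 and Siglech lay above the median on 21 and 17 arrays, and the neutrophil marker Ltf on 23. Itga2b and Ppbp of the erythroid or megakaryocyte list did so on 23 and 20, and the B cell marker Pax5 on 8. What part the cells of such markers had in the results was not tested. With LPS the median over all tested genes fell by 0.18 averaged over the media, and LPS differences below are as deposited, not relative to that median.

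LPS moved most of these genes, as it moved most genes on the array. In no serum 8 of the 9 genes passed the threshold (adjusted p under 0.05), 6 higher and 2 lower, against 58.9% of all genes tested, 19.8% higher and 39.1% lower. In calf serum the count was 7 of 9, 5 higher and 2 lower, against 58.6%, 20.8% higher and 37.8% lower. In mouse serum 5 of 9 were called, 4 higher and 1 lower, against 51.7%, 17.8% higher and 33.8% lower. In human serum 8 of 9 were called, 6 higher and 2 lower, against 53.8%, 18.4% higher and 35.5% lower. Averaged over the media 7 of 9 were called (5 higher, 2 lower), against 79.4% of all genes. Of all genes 28.9% were called higher and 50.5% lower in that average. The members' median difference was 0.36, against -0.18 over all genes tested. The members were chosen with earlier results of these data known, so comparisons of them with all genes, here and below, are a description. In bulk RNA a lower value can come from fewer cells of a kind or from less RNA per cell, and these cannot be told apart.

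**Figure D1:**
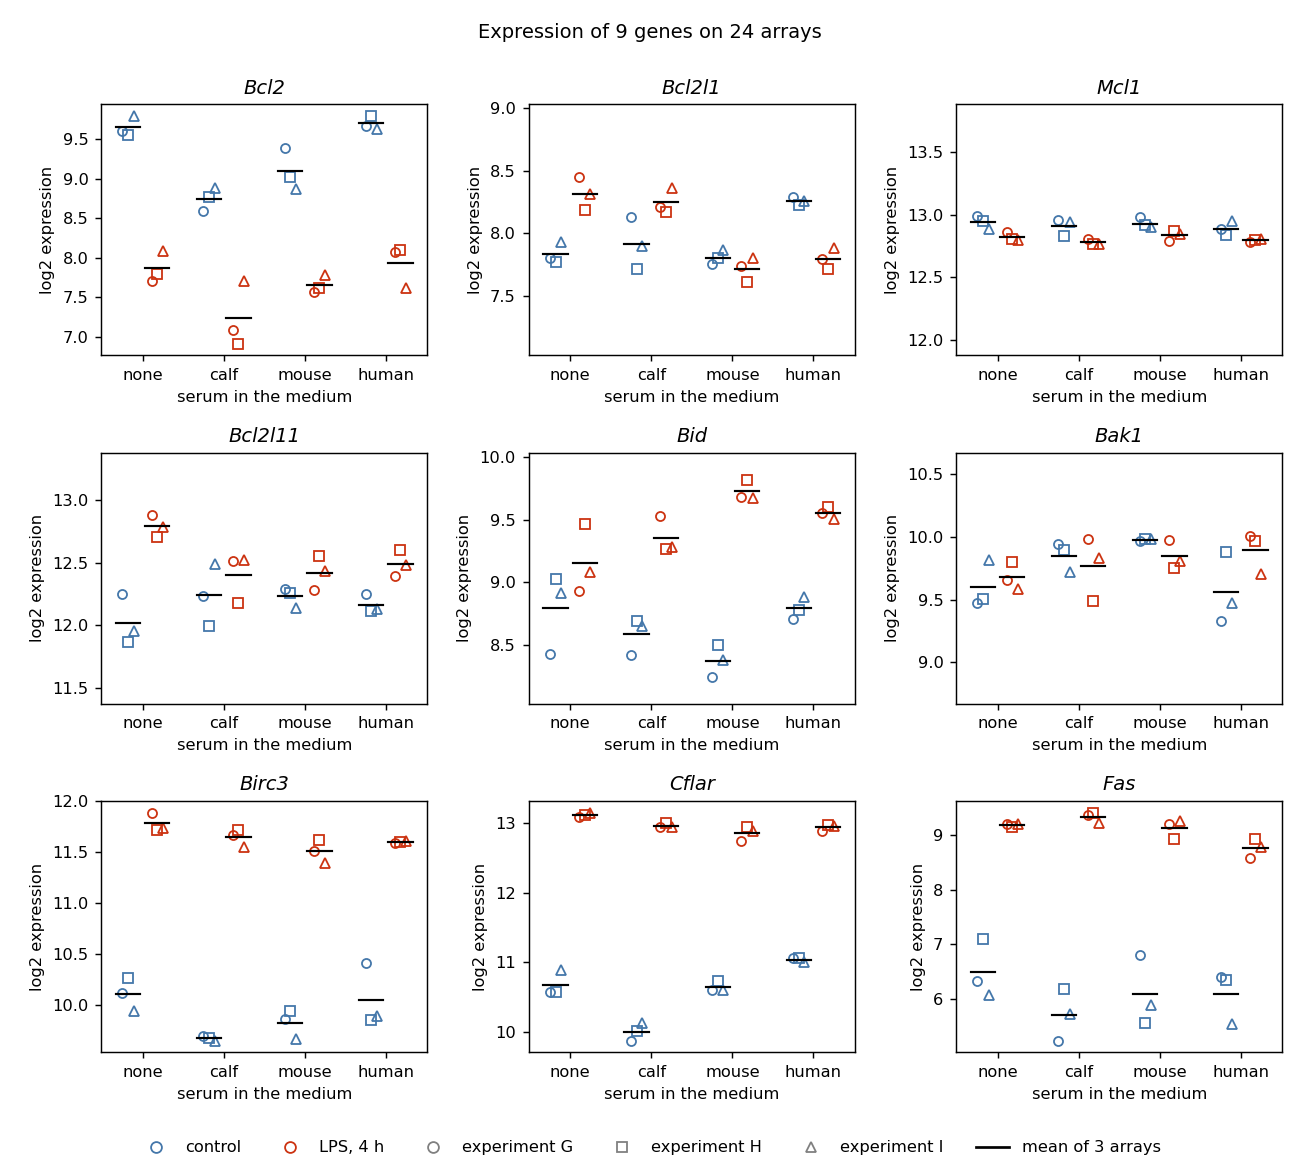
Log2 expression (vertical axis) of the 9 measured genes on each of the 24 arrays, by serum in the medium (horizontal axis), without LPS in blue and after 4 h of LPS in red. Symbols mark experiments G, H and I, and bars are means of 3 arrays. The LPS arrays of Fas, Cflar and Birc3 all lie above, and those of Bcl2 all below, every control array. As these genes were called with LPS, that adds little, and the share of all genes so separated is not given.

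Fas, the receptor whose ligation starts the extrinsic death pathway, had the largest rise among the probe sets that stand for the 9 genes. Without LPS it read 6.34, 7.10 and 6.07 in experiments G, H and I in no serum, 5.24, 6.18 and 5.72 in calf serum, 6.81, 5.56 and 5.89 in mouse serum and 6.40, 6.34 and 5.55 in human serum. The LPS arrays read 9.20, 9.14 and 9.20 in no serum, 9.36, 9.41 and 9.22 in calf serum, 9.20, 8.93 and 9.26 in mouse serum and 8.58, 8.94 and 8.78 in human serum. The LPS and control arrays did not overlap in any medium, and the controls lay close to the filter and varied more (SD 0.471 to 0.647, n = 3) than the controls of any other member. Here and for the genes below, the share of all genes with LPS and control arrays so separated is not given. The LPS difference was 2.68 in no serum, 3.62 in calf serum, 3.04 in mouse serum and 2.67 in human serum, each ± 0.289 (limma's SE). Averaged over the media it was 3.002 ± 0.144, an 8.01-fold rise (adjusted p = 5.41e-15). All 12 control arrays lay above the filter of 5.08 (5.24 to 7.10). How far the fold depends on the handling of background was not tested. No difference between media in the Fas response passed the threshold.

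Cflar encodes the caspase-8 inhibitor that acts just below Fas and the TNF receptors. Without LPS it read 10.57, 10.58 and 10.89 in no serum, 9.88, 10.01 and 10.13 in calf serum, 10.61, 10.73 and 10.60 in mouse serum and 11.06, 11.07 and 11 in human serum. The calf serum controls were below all other controls, and the human serum controls above all others. After LPS the values were 13.09, 13.12 and 13.15 in no serum, 12.94, 13.00 and 12.94 in calf serum, 12.74, 12.95 and 12.88 in mouse serum and 12.88, 12.97 and 12.96 in human serum. The 12 LPS arrays thus spanned 12.74 to 13.15, whereas the 12 controls spanned 9.88 to 11.07. The LPS difference was 2.44 in no serum, 2.96 in calf serum, 2.21 in mouse serum and 1.89 in human serum, each ± 0.0771, and 2.38 ± 0.0386 on average, a 5.19-fold rise.

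Birc3 encodes cIAP2, an inhibitor of apoptosis protein. Its controls read 10.12, 10.27 and 9.94 in no serum, 9.70, 9.68 and 9.65 in calf serum, 9.86, 9.94 and 9.67 in mouse serum and 10.41, 9.86 and 9.90 in human serum. With LPS it read 11.89, 11.72 and 11.74 in no serum, 11.67, 11.72 and 11.55 in calf serum, 11.51, 11.62 and 11.40 in mouse serum and 11.59, 11.60 and 11.61 in human serum. Every LPS array was above every control. The difference was 1.68, 1.97, 1.68 and 1.55 in no, calf, mouse and human serum (± 0.114), and 1.72 ± 0.0568 on average, a 3.30-fold rise (adjusted p = 3.67e-18). No difference between media in the Birc3 response passed the threshold.

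Bcl2, the founding pro-survival gene of the family, moved the other way. Its controls read 9.61, 9.56 and 9.79 in no serum, 8.59, 8.77 and 8.89 in calf serum, 9.39, 9.02 and 8.88 in mouse serum and 9.67, 9.80 and 9.63 in human serum. In the LPS arrays it read 7.71, 7.80 and 8.09 in no serum, 7.09, 6.91 and 7.71 in calf serum, 7.56, 7.61 and 7.78 in mouse serum and 8.08, 8.10 and 7.62 in human serum. It was lower with LPS in 12 of 12 comparisons within an experiment and medium, and the LPS and control arrays did not overlap. The difference was -1.79 in no serum, -1.51 in calf serum, -1.44 in mouse serum and -1.77 in human serum (± 0.178). The average was -1.63 ± 0.0891, a 3.09-fold lower level (adjusted p = 6.42e-14). No difference between media in this response passed the threshold.

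Bcl2l1, which encodes the pro-survival protein Bcl-xL, changed in opposite directions in different media. Its controls read 7.80, 7.78 and 7.93 in no serum, 8.13, 7.72 and 7.90 in calf serum, 7.75, 7.80 and 7.87 in mouse serum and 8.29, 8.23 and 8.26 in human serum. After LPS it read 8.45, 8.18 and 8.32 in no serum, 8.21, 8.17 and 8.36 in calf serum, 7.74, 7.61 and 7.80 in mouse serum and 7.79, 7.72 and 7.88 in human serum. LPS arrays lay above the controls in no and calf serum, below them in human serum, and overlapped them in mouse serum. The gene rose by 0.48 in no serum (adjusted p = 0.00167) and by 0.33 in calf serum (adjusted p = 0.0222). It fell by 0.46 in human serum (adjusted p = 0.00264), and the difference in mouse serum was -0.09 (adjusted p = 0.548), each ± 0.121. The average of 0.07 (adjusted p = 0.324) therefore describes no single medium. The calf serum call was lost without calf serum control H, calf serum control I or calf serum LPS I (adjusted p 0.0535 to 0.133). With each array centred on the median of the tested genes the human serum difference was -0.27 (adjusted p = 0.0791) and the average 0.28 (adjusted p = 0.000434).

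Mcl1, a short-lived pro-survival protein's gene, was the steadiest of the 9. Its 24 arrays spanned 12.77 to 12.99, and the 8 group means spanned 0.161, a smaller span than that of all but 0.857% of the genes tested. The LPS array was lower in 12 of 12 comparisons within an experiment and medium, and the LPS difference was -0.12, -0.13, -0.10 and -0.10 in no, calf, mouse and human serum (± 0.0434), with adjusted p of 0.0211, 0.0139, 0.0649 and 0.0581. The call in no serum was lost without no serum control G or H or no serum LPS H or I (adjusted p 0.0514 to 0.103), and that in calf serum without calf serum control G or I (adjusted p 0.0564 to 0.0683). With experiment as a block the human serum difference passed (adjusted p = 0.0459). The direction changed with scaling. With each array centred on the median of the tested genes the differences were 0.12 in no serum, 0.11 in calf serum and 0.10 on average. It also differed between the gene's 6 probe sets, of which 2 were called higher and 3 lower on average as deposited. The name of the probe set that stands for the gene ends in a mark for possible cross-hybridisation.

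Bcl2l11 encodes Bim, a BH3-only protein that binds all pro-survival family members. Its controls read 12.25, 11.87 and 11.95 in no serum, 12.23, 11.99 and 12.49 in calf serum, 12.29, 12.26 and 12.14 in mouse serum and 12.25, 12.11 and 12.13 in human serum. With LPS the readings were 12.88, 12.70 and 12.78 in no serum, 12.51, 12.18 and 12.52 in calf serum, 12.28, 12.55 and 12.43 in mouse serum and 12.39, 12.60 and 12.48 in human serum. The LPS arrays without serum stood above all others of this gene. The rise was 0.76 in no serum (adjusted p = 4.04e-06) and 0.33 in human serum (adjusted p = 0.0177), and the differences of 0.17 in calf serum (adjusted p = 0.206) and 0.19 in mouse serum (adjusted p = 0.16) did not pass, each ± 0.112. The human serum call was lost without human serum control H, human serum control I or human serum LPS H (adjusted p 0.05 to 0.0774). As the mean of its 5 kept probe sets the gene rose in calf serum too, by 0.78 (adjusted p = 1.43e-09), and in mouse serum by 0.50 (adjusted p = 1.99e-06), and with arrays centred on the median of the tested genes both calls passed too (0.40 and 0.37, adjusted p = 0.00483 and 0.0105).

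Bid, the BH3-only protein that caspase-8 cleaves to link death receptors to mitochondria, was called higher in all 4 media, but in no serum the call was lost without either of 2 arrays. Its controls read 8.43, 9.03 and 8.92 in no serum, 8.42, 8.69 and 8.65 in calf serum, 8.25, 8.50 and 8.38 in mouse serum and 8.71, 8.78 and 8.89 in human serum. The LPS arrays read 8.93, 9.46 and 9.08 in no serum, 9.53, 9.26 and 9.28 in calf serum, 9.68, 9.82 and 9.67 in mouse serum and 9.55, 9.60 and 9.50 in human serum. LPS and control arrays overlapped in no serum alone among the media. The rise was 0.37 in no serum (adjusted p = 0.0329), 0.77 in calf serum (adjusted p = 8.41e-05), 1.35 in mouse serum (adjusted p = 3.83e-08) and 0.76 in human serum (adjusted p = 0.000109), each ± 0.144. In no serum the difference was 0.18 without control G (adjusted p = 0.275) and 0.21 without LPS H (adjusted p = 0.229).

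Bak1, the pore-forming effector, moved little. Its group means lay between 9.56 and 9.98, and LPS and control arrays overlapped in every medium. In human serum the controls read 9.33, 9.88 and 9.47 and the LPS arrays 10.01, 9.97 and 9.71, a difference of 0.33 ± 0.138 (adjusted p = 0.0448). That call was lost for 8 of the 24 arrays left out singly: human serum LPS G and H, human serum control G and I, mouse serum control G, H and I, and mouse serum LPS I (adjusted p 0.0503 to 0.221), and the difference was 0.22 without human serum control G. The differences of 0.08 in no serum, -0.08 in calf serum and -0.13 in mouse serum did not pass. Averaged over the media the difference was 0.05 (adjusted p = 0.503), and with each array centred on the median of the tested genes it was 0.26 (adjusted p = 0.00152). Its other probe set gave 0.31 on average and passed.

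**Figure D2:**
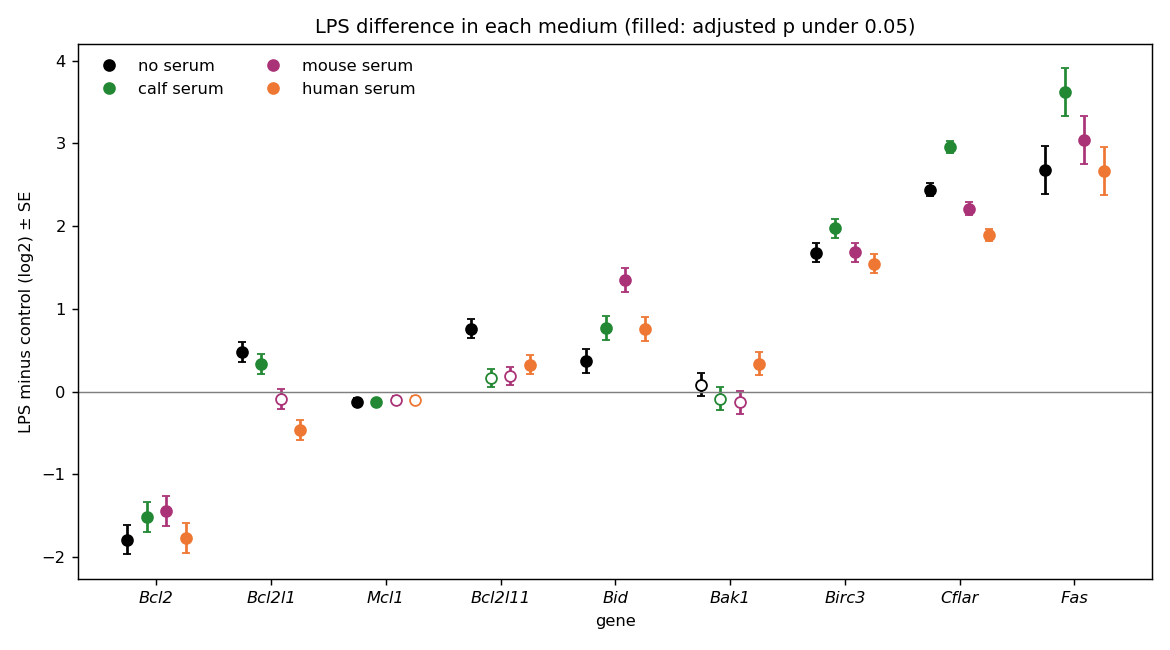
LPS minus control (log2, vertical axis) for each of the 9 genes (horizontal axis) in no serum, calf serum, mouse serum and human serum, with limma's SE as bars (n = 3 arrays a group). Filled points passed the threshold; Bcl2l1 runs from 0.48 in no serum to -0.46 in human serum, whereas Bcl2, Birc3, Cflar and Fas keep 1 sign in the 4 media.

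Whether the medium changed the LPS response was tested as the difference between responses. Comparisons against no serum share its arrays. The response of Bcl2l1 was lower than in no serum in human serum (-0.94, adjusted p = 0.0013) and in mouse serum (-0.57, adjusted p = 0.0476). Human serum differed from calf serum by -0.79 (adjusted p = 0.00659). The mouse serum call was lost for 18 of the 24 arrays left out singly (adjusted p 0.0515 to 0.124) and kept without calf serum control G or H, calf serum LPS H or I, no serum LPS H or no serum control I.

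Cflar responded more in calf serum than in no serum by 0.52 (adjusted p = 0.011) and less in human serum, by -0.55 (adjusted p = 0.00292). Against calf serum the response was -0.74 in mouse serum (adjusted p = 0.000167) and -1.06 in human serum (adjusted p = 1.76e-06). The LPS means of Cflar lay within 12.86 to 13.12, and its control means between 10 and 11.04. Bid responded more in mouse serum than in no serum by 0.98 (adjusted p = 0.00308). Bcl2l11 responded less in mouse serum than in no serum, by -0.57 (adjusted p = 0.0306). That call was lost without any 1 of mouse serum LPS G or I, no serum LPS G or I, mouse serum control G or H, or no serum control H or I (adjusted p 0.0516 to 0.0973). In calf serum the Bcl2l11 difference was -0.60 (adjusted p = 0.0546), and with experiment as a block its adjusted p was 0.04. The members called were 1 of 9 for calf against no serum (1.80% of all genes), 3 of 9 for mouse against no serum (6.46%), 2 of 9 for human against no serum (4.96%), 1 of 9 for mouse against calf (3.78%), 2 of 9 for human against calf (4.60%) and 0 of 9 for mouse against human serum (0.628%; 4 of 9 at an unadjusted p under 0.05). The members not named in a comparison had no call there, with differences from -0.60 to 0.94 for calf, -0.23 to 0.36 for mouse and -0.44 to 0.39 for human against no serum, -0.58 to 0.58 for mouse and -0.95 to 0.42 for human against calf serum, and -0.46 to 0.59 for mouse against human serum.

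Serum alone was compared at 4 h without LPS. In calf serum 3 of 9 were called, all lower, against 2.96% of all genes and 2.27% called lower. Bcl2 was lower than in no serum by 0.91 (-0.91 ± 0.178, adjusted p = 0.00292), Cflar by 0.68 (-0.68 ± 0.0771, adjusted p = 4.88e-06) and Birc3 by 0.43 (-0.43 ± 0.114, adjusted p = 0.0343). The other 6 (Bcl2l1, Mcl1, Bcl2l11, Bak1, Bid and Fas) had no call, with differences from -0.79 to 0.25. The arrays of Bcl2, Birc3 and Cflar in calf serum did not overlap those in no serum. As these 3 had already been called lower, that adds little, and the share of all genes without overlap is not given here. The Birc3 call was lost without calf serum control G, H or I or no serum control G or H (adjusted p 0.0891 to 0.225), and its other probe set read 0.09 without a call. Fas was -0.79 in calf serum (± 0.289, adjusted p = 0.2).

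Human serum without LPS raised 2 of the 9, against 10.4% of all genes and 4.73% called higher. Bcl2l1 rose by 0.42 (adjusted p = 0.0262) and Cflar by 0.36 (adjusted p = 0.00277), and in both the 3 human serum arrays lay above the 3 without serum. The share of all genes with arrays so separated is not given here. The other 7 (Bcl2, Mcl1, Bcl2l11, Bak1, Bid, Birc3 and Fas) had no call, from -0.40 to 0.14. The Bcl2l1 call was lost without human serum control G, H or I or no serum control G or H (adjusted p 0.0539 to 0.102). Mouse serum without LPS called 1 of 9, against 9.81% of all genes: Bcl2 fell by 0.56 (adjusted p = 0.0481). That call was lost for 18 of the 24 arrays left out singly (adjusted p 0.0501 to 0.219) and kept without mouse serum control G, calf serum LPS G, H or I, no serum LPS I or human serum LPS I. In the fit of all probe sets 0 of the 5 of Bcl2 passed there, with differences from -0.79 to 0.10. The other 8 (Bcl2l1, Mcl1, Bcl2l11, Bak1, Bid, Birc3, Cflar and Fas) had no call, from -0.42 for Bid to 0.38 for Bak1. Bid did not pass (adjusted p = 0.0736), and with experiment as a block it passed (adjusted p = 0.0357).

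Set against each other without LPS, the sera differed in Cflar in all 3 pairs. It was higher in human than in calf serum by 1.04 (adjusted p = 1.43e-09), higher in mouse than in calf serum by 0.64 (adjusted p = 2.3e-06), and lower in mouse than in human serum (-0.40, adjusted p = 0.00189). Bcl2 was 0.95 higher in human than in calf serum (adjusted p = 0.000518) and lower in mouse than in human serum (-0.61, adjusted p = 0.048). The last call was lost for 19 of the 24 arrays left out singly (adjusted p 0.0501 to 0.231) and kept without mouse serum control G, calf serum LPS H or I, no serum LPS I or human serum LPS I. In the fit of all probe sets 0 of the 5 of Bcl2 passed in mouse against human serum, from -1.43 to 0.11. Birc3 was 0.38 higher in human than in calf serum (adjusted p = 0.0259), a call lost without human serum control G or calf serum control G, H or I (adjusted p 0.0525 to 0.214), and the difference was 0.20 without the first of these. Bcl2l1 was lower in mouse than in human serum (-0.45, adjusted p = 0.0277), a call lost without any 1 of those 6 arrays (adjusted p 0.0588 to 0.103). Its human minus calf serum difference of 0.34 (adjusted p = 0.0616) passed with experiment as a block (adjusted p = 0.0384). Without a call were Bcl2l1, Mcl1, Bcl2l11, Bak1, Bid and Fas in human against calf serum (-0.29 to 0.39), these and Bcl2 and Birc3 in mouse against calf serum (-0.21 to 0.37), and Mcl1, Bcl2l11, Bak1, Bid, Birc3 and Fas in mouse against human serum (-0.42 to 0.41). The calls numbered 3 of 9 for human against calf (14.7% of all genes), 1 of 9 for mouse against calf (9.63%) and 3 of 9 for mouse against human serum (5.25%).

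**Figure D3:**
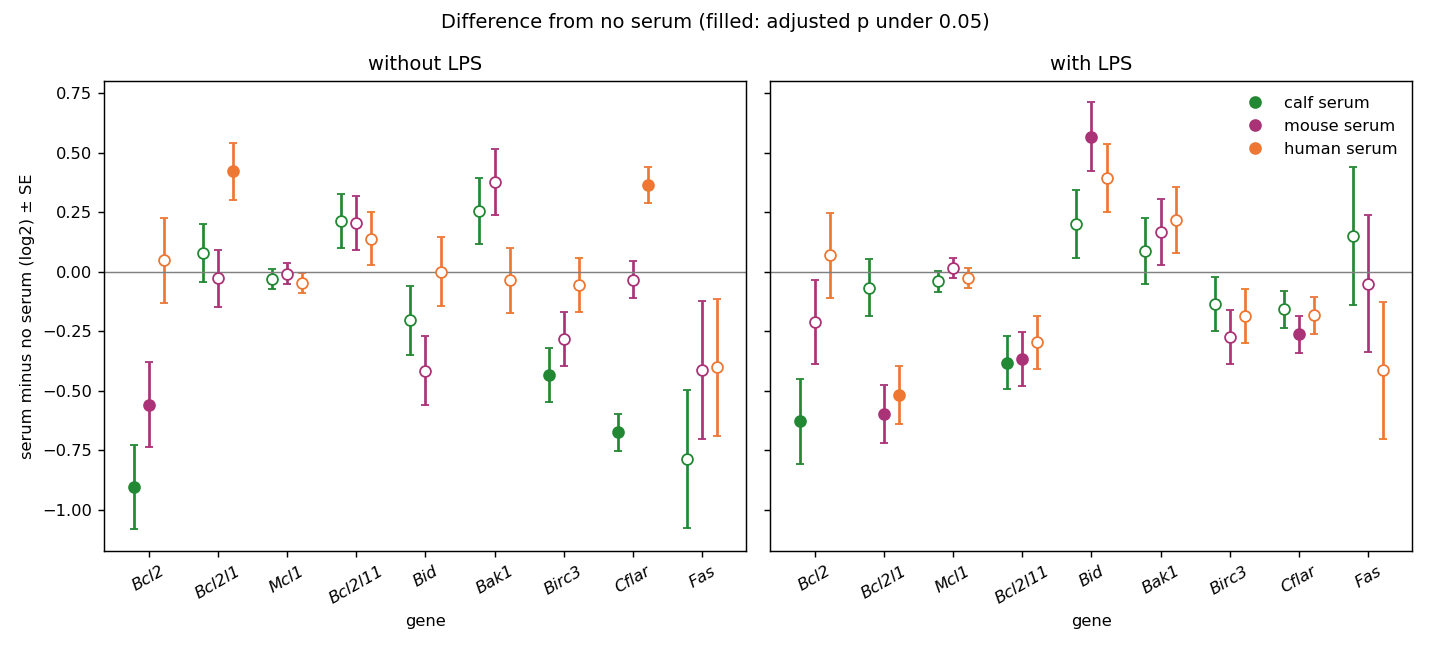
Serum minus no serum (log2, vertical axis) for the 9 genes (horizontal axis) in calf, mouse and human serum, without LPS on the left and with LPS on the right, with limma's SE as bars (n = 3 arrays a group). Filled points passed the threshold; Cflar is -0.68 in calf and 0.36 in human serum without LPS, and with LPS Bcl2l1 is -0.60 in mouse and -0.52 in human serum.

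With LPS the sera were set against no serum in the same way. In mouse serum 4 of 9 were called, 1 higher and 3 lower, against 13.4% of all genes, 6.82% higher and 6.58% lower. Bcl2l1 fell by 0.60 (adjusted p = 0.00141), Bcl2l11 fell by 0.37 (adjusted p = 0.0314), Cflar fell by 0.26 (adjusted p = 0.0239) and Bid rose by 0.57 (adjusted p = 0.00925). The Bcl2l11 call was lost without mouse serum LPS G or I or no serum LPS G or I (adjusted p 0.0698 to 0.148). The Cflar call was lost without mouse serum LPS G or I or no serum LPS H or I (adjusted p 0.0514 to 0.136), and the Bid call without no serum LPS G (adjusted p = 0.0677). In human serum 1 of 9 was called, against 5.24%: Bcl2l1 fell by 0.52 (adjusted p = 0.00979), which did not pass without no serum LPS G or human serum LPS H (adjusted p 0.0534 to 0.065). In calf serum 2 of 9 were called, against 10.9%: Bcl2 fell by 0.63 (adjusted p = 0.0232) and Bcl2l11 fell by 0.38 (adjusted p = 0.0286). The former was lost without calf serum LPS G or H or no serum LPS I (adjusted p 0.0808 to 0.148), and the latter without no serum LPS G or I or calf serum LPS H (adjusted p 0.0654 to 0.184). Without a call were Bcl2, Mcl1, Bak1, Birc3 and Fas in mouse serum (-0.28 to 0.17), all but Bcl2l1 in human serum (-0.42 to 0.39), and Bcl2l1, Mcl1, Bak1, Bid, Birc3, Cflar and Fas in calf serum (-0.16 to 0.20).

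Between sera with LPS, Bcl2l1 was lower in mouse than in calf serum (-0.53, adjusted p = 0.00799), the single call of 9 (5.42% of all genes). In human against calf serum 2 of 9 were called (6.27% of all genes): Bcl2 was 0.70 higher (adjusted p = 0.0182) and Bcl2l1 lower (-0.45, adjusted p = 0.0247). The Bcl2 call was lost without human serum LPS G or H or calf serum LPS G or H (adjusted p 0.0675 to 0.129), and that of Bcl2l1 without human serum LPS G or H or calf serum LPS I (adjusted p 0.0736 to 0.106). Without a call were the other 8 in mouse against calf serum (-0.20 to 0.42) and Mcl1, Bcl2l11, Bak1, Bid, Birc3, Cflar and Fas in human against calf serum (-0.57 to 0.19). Mouse against human serum called 0 of 9 by limma (2.39% of all genes; 0 of 9 at an unadjusted p under 0.05), from -0.28 to 0.36. Bak1, Mcl1 and Fas were called in no comparison between media.

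In the order of the 8 group means of a gene, the arrays of most neighbours overlapped. For Fas and Birc3 the 4 LPS means stood above the 4 control means with a gap between the lowest LPS and the highest control group, 8.77 against 6.50 for Fas and 11.51 against 10.11 for Birc3. For Cflar the order among controls was human serum at 11.04, no serum at 10.68, mouse serum at 10.65 and calf serum at 10, and the arrays of no and mouse serum overlapped whereas the other neighbours did not. For Bcl2 the order was human serum at 9.70, no serum at 9.65, mouse serum at 9.09 and calf serum at 8.75 among controls, and the same among LPS groups at 7.93, 7.86, 7.65 and 7.24. Without LPS human and no serum overlapped, as did mouse and calf serum, and with LPS all 3 neighbouring pairs overlapped. For Bcl2l1 the highest means were no serum with LPS at 8.32, human serum without LPS at 8.26 and calf serum with LPS at 8.25, which overlapped, and the lowest was mouse serum with LPS at 7.72. The span between the highest and lowest mean was 3.62 for Fas, 3.12 for Cflar, 2.47 for Bcl2, 2.11 for Birc3, 1.35 for Bid, 0.762 for Bcl2l11, 0.599 for Bcl2l1 and 0.414 for Bak1.

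Further probe sets read the same genes at other positions of the transcript, and 32 of the members' 33 probe sets passed the filter. All 5 of Cflar were higher with LPS in each of the 4 media, with averages between 1.07 and 4.44, and both of Birc3 likewise (1.41 and 1.72). The differences between media in the Cflar response were less even over its 5 probe sets. Against no serum 1 was called in calf serum (-0.24 to 0.55) and 2 in human serum (-0.72 to 0.005). Against calf serum 3 were called in mouse serum (-0.77 to -0.03) and 3 in human serum (-1.22 to 0.25). Of the 5 of Bcl2, 2 were above the filter on control arrays alone (5 and 3 of 12, and 0 of 12 LPS arrays), so they could only read lower with LPS and support nothing. The other 3 were called lower on average, between -1.63 and -1.01. All 3 of Bid were called higher on average (0.81 to 0.88). The 3 kept probe sets of Bcl2l1 had the same signs as each other in each medium: 0.48 to 0.62 in no serum, 0.23 to 0.42 in calf serum, -0.80 to -0.09 in mouse serum and -0.58 to -0.44 in human serum. In the fit of all probe sets 2, 1, 1 and 1 of the 3 passed in no, calf, mouse and human serum. With LPS all 3 were lower in mouse serum than in no serum and passed, by -1.41 to -0.60.

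For Bcl2l11 the probe set with the highest mean gave the smallest LPS difference of its 5. The average rise was 0.36 on it and 0.52, 1.13, 1.31 and 1.34 on the other 4. With LPS all 5 were called lower in calf serum (-0.64 to -0.38) and in mouse serum (-0.94 to -0.37) than in no serum, and without LPS none of the 5 passed in either. The response in mouse serum was below that in no serum on all 5, between -1.06 and -0.57, each past the threshold in the fit of all probe sets. The probe sets of Mcl1 disagreed: of 6, 2 were called higher and 3 lower with LPS on average, between -0.23 and 0.26. That of Fas stands alone.

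**Figure D4:**
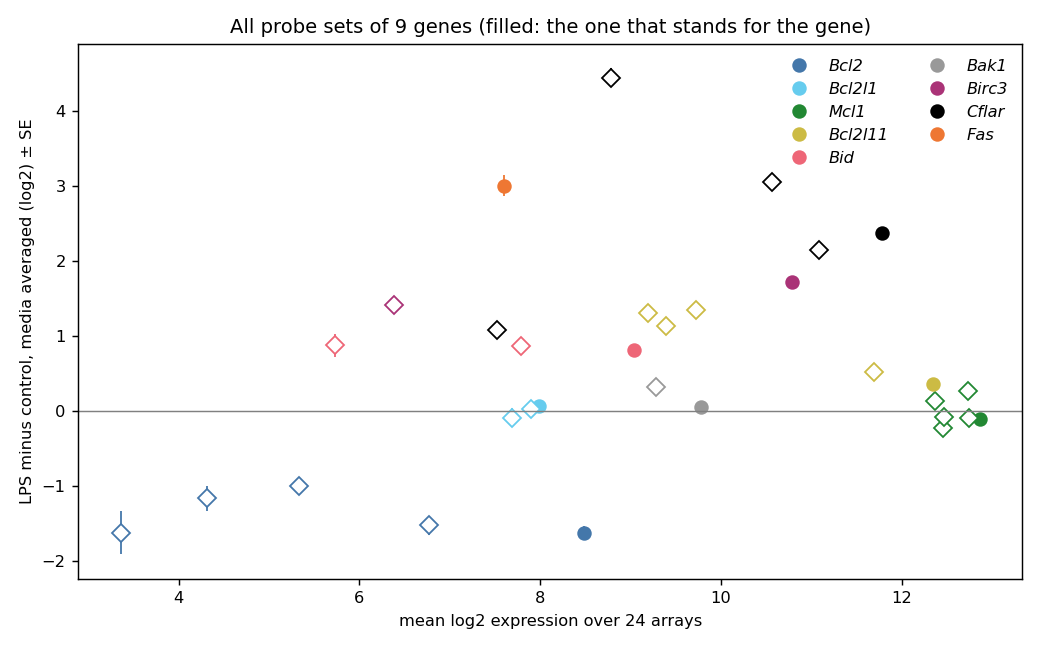
LPS minus control averaged over the media (log2, vertical axis, with limma's SE) against the mean log2 level over 24 arrays (horizontal axis) for the 32 kept probe sets of the 9 genes, filled where the probe set stands for its gene. The 5 of Cflar lie between 1.07 and 4.44 and those of Mcl1 on both sides of 0; the 3 of Bcl2 with arrays above the filter in both groups lie between -1.63 and -1.01, and the 2 leftmost points of Bcl2 were kept through control arrays alone.

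Other genes of the pathway were read from lists of 42 genes, of which 31 were tested. The lists too were chosen with earlier results of these data known, so their counts against all genes are a description. Averaged over the media, LPS raised 14 and lowered 9 of the 31, where 28.9% of all genes were called higher and 50.5% lower, with a median difference of 0.05 against -0.18 over all genes. With arrays centred on the median of the tested genes these counts were 18 and 5. Under that centring more of all genes were called higher than lower, so the shares above do not apply to these counts. The matching numbers of all genes are given in the last section, and the counts are not read as a result about the lists. Of the death receptor list 7 were tested, and 4 rose, among them Tnfsf10, the gene of the ligand TRAIL, by 5.56 ± 0.101, the adaptor Traf2 by 2.03 and the TNF receptor Tnfrsf1a by 1.01. Tnfsf10 averaged 5.29 without LPS, close to the filter, and how far its rise depends on the handling of background was not tested. The adaptors Fadd and Tradd fell by 0.47 and 0.23, and with that centring Tradd was at -0.01 (adjusted p = 0.866). Of the other inhibitor of apoptosis genes 5 of 7 tested rose, among them Birc2, the close relative of Birc3, by 1.77 ± 0.0529, Naip6 by 0.54 and Birc6 by 0.45, and Birc5 (survivin, a gene of dividing cells) fell by 1.35. Of the other BH3-only genes 1 of 6 tested rose (Hrk by 0.31) and 2 fell, Pmaip1 (Noxa) by 1.12 and Bad by 0.60. Hrk averaged 4.95 without LPS, below the filter, and 5.26 with LPS. How far the filter favoured a rise of Hrk was not tested. In the mitochondrial and executioner list 2 of 6 tested rose, the apoptosome gene Apaf1 by 1.49 and cytochrome c, Cycs, by 0.66. The other calls there were lower, with Casp9, the caspase of the apoptosome, at -1.77 ± 0.0644, the protease Htra2 at -0.42 and the executioner Casp6 at -0.38. With that centring Htra2 (-0.20, adjusted p = 0.0854) and Casp6 (-0.16, adjusted p = 0.132) did not pass. Of the 3 necroptosis genes, Mlkl, the membrane-rupturing effector, and Zbp1, a nucleic acid sensor, rose by 2.95 each. Ripk3 had no call on average (-0.03), but fell by 0.43 in no serum (adjusted p = 0.0423). For that fall no values are given with single arrays left out or with that centring. The differences of Ripk3 between sera and no serum with LPS, given below, shrank without no serum LPS G. The effector Bok (0.01) and the pro-survival Bcl2l2 had none. Bcl2a1a, Bcl2a1b and Bcl2a1d are named only on probe sets that name several genes, and were not analysed here.

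Serum was set against no serum for the same 31 genes, in comparisons that share the no serum arrays. Without LPS 1 was called in calf serum (2.96% of all genes), 5 in mouse serum (9.81%) and 3 in human serum (10.4%). In calf serum this was Birc2 (-0.39, adjusted p = 0.0429, a call lost for 15 of the 24 arrays left out singly). In mouse serum the calls were Pmaip1, whose protein neutralises Mcl1 (-1.27, adjusted p = 0.00168), Bbc3, the gene of the BH3-only protein Puma (-0.71), Bcl2l2 (-0.44), Naip2 (0.58) and Cycs (0.17), and those of Bbc3, Bcl2l2 and Cycs were lost for 2, 3 and 10 of the 24 arrays. In human serum they were Apaf1 (-0.57), Naip2 (0.30) and Cycs (0.22), and those of the last 2 were lost for 15 and 1 of the 24.

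With LPS 4 of the 31 were called in calf serum (10.9% of all genes), 6 in mouse serum (13.4%) and 5 in human serum (5.24%). Casp9 was higher than in no serum by 0.83, 0.91 and 0.48 in calf, mouse and human serum, and the last call was lost without no serum LPS G or human serum LPS H or I (adjusted p 0.0997 to 0.155). Ripk3, the kinase that activates Mlkl, was higher by 0.56, 0.55 and 0.65, calls lost for 19, 8 and 5 of the 24 arrays left out singly. Without no serum LPS G the Ripk3 differences were 0.31, 0.31 and 0.40. Birc2 was -0.66 in mouse and -0.55 in human serum. Pmaip1 was -1.05 in calf serum, a call lost without no serum LPS G or calf serum LPS I (adjusted p 0.0572 to 0.0617), and -0.80 in mouse serum, where it was -0.48 without mouse serum LPS I (adjusted p = 0.277). Htra2 was 0.77 in calf serum, and 0.37 without calf serum LPS H (adjusted p = 0.093). Tnfrsf10b, a TRAIL receptor gene, was -0.92 in mouse serum, and -0.54 without mouse serum LPS H (adjusted p = 0.271). The calls of Pmaip1 in mouse serum, Htra2 and Tnfrsf10b were lost for 13, 2 and 8 of the 24 arrays left out singly. Casp8 was 0.34 in mouse and 0.35 in human serum, and Tnfrsf1a 0.31 in human serum, calls lost in human serum for 3 and 14 of the 24 arrays.

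Genes most like a member were sought by Pearson's r over the 8 group means among 4561 genes with a span of at least 1, for the 5 members with such a span. These means share the LPS arrays, which sets most of the likeness, so r is a description. Nearest to Birc3 were Nfkbiz (r = 0.999) and Adar (0.998). Nearest to Cflar were Traf1 (0.999) and Nfkbie (0.998), to Fas Creb5 (0.998) and Cd69 (0.996), to Bcl2 Sphk2 (0.99) and Lonrf3 (0.986), and to Bid 9330175E14Rik (0.978) and Tnfrsf14 (0.974). Among the members over the same 8 means, r was 0.991 between Birc3 and Cflar, 0.992 between Birc3 and Fas, and -0.893 between Bcl2 and Fas.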

How the data were processed

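The authors deposited log2 expression values, which were used unchanged; GCRMA and Partek appear, without versions or settings, in the submitters' processing notes. The log base was inferred from the range (1.48 to 14.84). GCRMA models background, so low values depend on it, and its part in those of Fas without LPS was not tested. For arrays their number, 3 per group, limits the precision. Of 45101 probe sets 34945 name 1 gene. A probe set was kept where 3 or more of the 24 arrays exceeded 5.08, the median of all values, and the one with the highest mean stood for each of 11785 genes.

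All 24 arrays entered a limma 3.58.1 model (R 4.3.3) with a mean for each of the 8 groups and trended, robust empirical Bayes. The 23 comparisons were two-sided, with Benjamini-Hochberg adjustment within each over all genes and a threshold of 0.05. The labels' experiment letters G, H and I pair arrays across groups. Deviations from group means correlated at a median of 0.0616 over 84 pairs of the same letter (17 above 0.1) and -0.035 over 168 others. Experiment was a block in an alternative. The batch in the array names follows the experiment except on calf serum control H, named with the batch of G. On simulated data for the LPS comparison in mouse serum (11785 genes), 21, 46, 50 and 50 of 50 genes changed by 0.5, 1, 2 and 4 were recovered and 6 unchanged ones called.

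Members and lists were chosen with earlier results of these data known. Members without a call are given by their range. List genes are named where they passed with the same sign in all 3 experiments, up to 3 each way per list for the averaged LPS response and up to 2 for a serum; Ripk3 in no serum was added after its values were seen. Alternatives were experiment or batch as a block, quantile normalization, centring on array medians, no filter or a stricter one (1 unit higher), the mean of all kept probe sets, plain empirical Bayes, and leaving out arrays or experiments. Centring on the median of the tested genes was added after seeing the data. Figures used matplotlib 3.10.9.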

Additional observations from a re-analysis of the deposited data

Results flagged for a closer look

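For 9 results a test of the difference between responses found that the LPS response of a member was not the same in both media (n = 3 arrays a group, limma's test across all genes). For Bcl2l1 the response differed from that in no serum by -0.57 in mouse serum and by -0.94 in human serum, and human serum differed from calf serum by -0.79. For Bcl2l11 mouse serum differed from no serum by -0.57. For Bid mouse serum differed from no serum by 0.98. For Cflar the response differed from that in no serum by 0.52 in calf serum and -0.55 in human serum, and from that in calf serum by -0.74 in mouse serum and -1.06 in human serum. All are on the log2 scale. With arrays left out singly the mouse against no serum calls of Bcl2l1 and Bcl2l11 were lost for 18 and 8 of the 24. Leaving out any 1 of the 3 experiments lost Bcl2l1 in mouse against no serum and human against calf serum, and Cflar in calf against no serum. For 2 of the 3 the losses were Bcl2l11 in mouse, and Bcl2l1 and Cflar in human, against no serum. Bid was lost for 1 of the 3, and the Cflar calls against calf serum were kept. No Cflar call was shared by all 5 of its probe sets. No group was large enough to look for single outlying arrays.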

How the results depend on the processing

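Over 9 other settings and 207 member results (9 genes in 23 comparisons), 1799 of 1863 values kept their direction and their side of the threshold, 31 lost the call, 29 gained one and 4 reversed. The reversed ones are all of Mcl1 with LPS: 0.00798 in no serum as the mean of its probe sets, and 0.1235, 0.1069 and 0.1004 in no serum, calf serum and on average with arrays centred on the median of the tested genes. That centring moved the LPS median of all genes from between -0.186 and -0.153 to between 0.026 and 0.068, and the calls from 2333 higher and 4609 lower to 3733 and 2929 in no serum, from 2446 and 4459 to 3910 and 2752 in calf serum, from 2103 and 3984 to 3079 and 2608 in mouse serum, from 2165 and 4180 to 3226 and 2719 in human serum, and from 3404 and 5957 to 4825 and 4119 on average. Members called in mouse against no serum without LPS numbered 1, and 2 with the replicate block (experiment) or batch, and 0 with no filter, the mean of probe sets, plain empirical Bayes or that centring. In the LPS response of calf against no serum they numbered 1, and 2 with the replicate block, quantile normalization or the stricter filter. The block changed no call of a member other than the 4 gained ones given with the results. Human against calf serum with LPS went from 2 to 1 with quantile normalization. The mean of probe sets gave 2 for 1 in human against no serum with LPS, 1 for 0 in mouse against human serum with LPS, and 2 for 1 and 1 for 0 in the LPS responses of mouse against calf and mouse against human serum. Plain empirical Bayes gave 1 for 2 in calf and 2 for 4 in mouse against no serum with LPS. All genes called in the LPS response of mouse against human serum numbered 74, and 133 with the replicate block, 114 with batch and 41 with plain empirical Bayes. Of 422 values of 47 named results of the pathway lists, 40 lost their call and none reversed. The causes were not tested. With single arrays or 1 experiment left out, members called ranged over 5 to 8 for LPS in no serum. Against no serum without LPS they ranged over 1 to 3 in calf, 0 to 1 in mouse and 0 to 2 in human serum, and with LPS over 0 to 2, 1 to 5 and 0 to 2. They ranged over 1 to 3 for mouse against human serum without LPS, 0 to 2 for mouse against calf and 0 to 2 for human against calf serum with LPS. In the LPS responses they ranged over 0 to 2, 0 to 3 and 0 to 3 in calf, mouse and human against no serum and 1 to 2 in human against calf serum. Leaving out a whole experiment leaves 2 arrays a group.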
